A study of Mus musculus with 5 samples.

Results

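Among the H3K9me3 islands of mouse embryonic stem cells (ESCs), 2971 autosomal islands had a single counterpart at least 2 times as wide, and narrower than 10 kb, in cells cultured with L-proline. They were chosen by their measured widths, from 12235 autosomal pairs in which 1 ESC island and 1 island of the treated cells overlapped each other and no other island. The ESC list held 18464 islands in all, 17697 of them on autosomes. Of these, 3732 had no counterpart, 271 met several islands, 1459 shared their counterpart with another ESC island, and 12235 formed the pairs. Another 181 pairs widened at least 2 times but reached 10 kb or more, and they are not among the 2971.

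The cells were of the wild-type TBV2 line (129/SvP), grown with leukemia inhibitory factor on gelatin without feeder cells and without non-essential amino acids. Control ESCs were kept for 5 days without L-proline, and L-proline-induced cells (PiCs) for 5 days with 500 µM of it. Chromatin immunoprecipitation with sequencing (ChIP-seq) was done for H3K9me3 and for H3K36me3, with 1 library for each mark and condition. The question was where the 2 marks lie with and without this amino acid. No library had a replicate, so no difference between ESCs and PiCs was tested, and no p-value is given. Intervals are exact 95% binomial intervals over islands, or exact Poisson intervals for tag counts, and cover counting error only. No markers were at hand to check the cell type.

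H3K9me3, trimethylation of lysine 9 of histone H3, marks silent chromatin and many repeats. Heterochromatin protein 1 binds the mark and can bring in the methyltransferases that write it, so that a marked domain can grow outward from nucleosome to nucleosome until it meets a boundary. H3K36me3 is laid down by SETD2 along the bodies of transcribed genes and is mostly found apart from H3K9me3. An island here is a stretch that a peak caller built from 200 bp windows above a threshold, so each edge moves in steps of 200 bp. Neighbouring islands of both H3K9me3 lists lay at least 800 bp apart. Windows below the threshold may thus lie inside an island, and added length need not be marked throughout. A wider island can stem from more cells with the mark there or from more mark per cell. These cannot be told apart in a population. Because the threshold sets each edge, island width can also depend on the tag yield of the library, with no change in the mark. The part of tag yield in the widening was not tested.

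The 2971 widened islands were narrow in ESCs and grew by a median of 2.8 kb. Their ESC width ran from 0.2 to 4.6 kb with a median of 1.6 kb, and their PiC width from 0.4 to 9.8 kb with a median of 4.4 kb. The width ratio had a median of 2.67 and a highest value of 20. It was exactly 2 in 323 islands, at least 3 in 1203, at least 5 in 297 and at least 10 in 34. These values follow from the rule in part, since it set the lowest ratio and the widest PiC island. The median PiC width of the class was above that of the whole PiC list, 3.2 kb, while its median ESC width was below that of the whole ESC list, 2.6 kb.

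Among the pairs, widening was the more common direction. This leaves out the ESC islands with no counterpart (3732), with several (271) or with a shared one (1459). The 2971 made up 24.3% of the 12235 pairs, and this percentage is the one the rule itself sets. The same rule with the lists exchanged, an ESC island at least 2 times the PiC width and under 10 kb, found 315 pairs, or 2.57%. The ratio of widened to narrowed pairs was 9.43 (interval 8.39 to 10.6). Of all pairs 8855 were wider in PiCs, 2329 were narrower and 1051 had equal widths, 748 of them with the same edges. The PiC islands held 3514489 tags in sum and the ESC islands 1511058, a ratio of 2.33. These sums also depend on the number and width of the islands, 25867 in PiCs and 18464 in ESCs, so they are no measure of library yield. In the 748 pairs with the same edges the median tag ratio was 1.52. The part of tag yield in the widening was not tested.

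**Figure D1:**
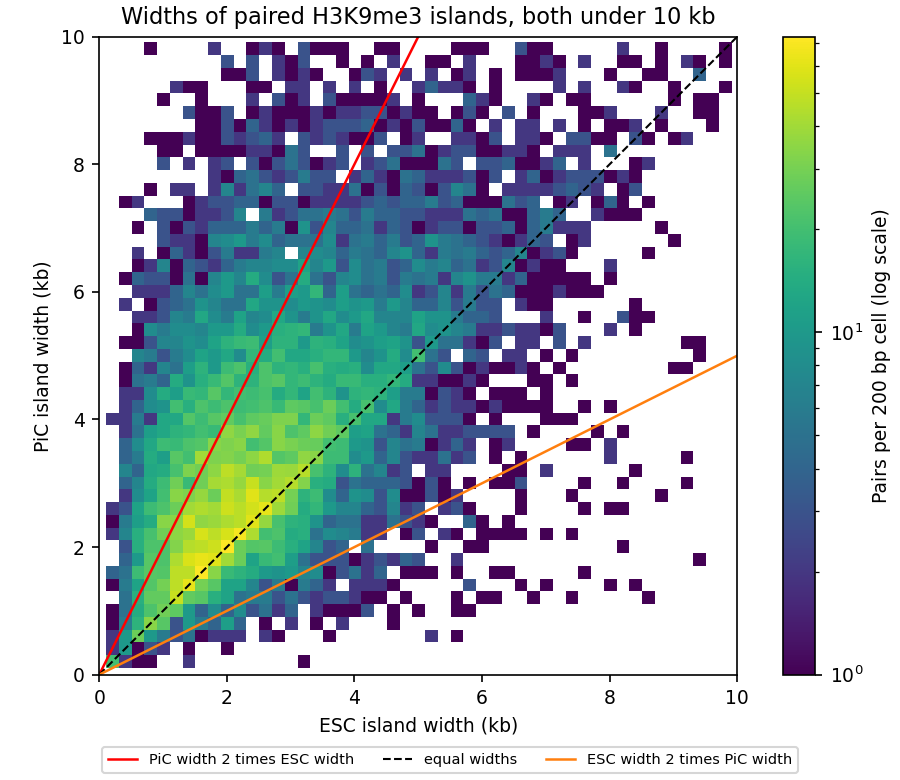
Width of the ESC island (x axis, kb) against that of its PiC counterpart (y axis, kb) for pairs with both widths under 10 kb, coloured by the number of pairs in each 200 bp cell on a log scale. Pairs on or above the red line are the 2971 widened islands, and pairs on or below the orange line are the 315 narrowed ones.

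The limit of 2 cut through a range of ratios that went on below it. Just inside it lay an island on chromosome 1 at 4788801 to 4791000 that ran from 4787401 to 4791800 in PiCs (2.2 to 4.4 kb). Next to it in order were 2 further chromosome 1 islands with a ratio of 2, at 5178201 to 5179400 (1.2 to 2.4 kb) and at 10233601 to 10235000 (1.4 to 2.8 kb). Just outside lay a chromosome 1 island at 143659201 to 143664000, which went from 4.8 to 9.4 kb, a ratio of 1.96. The next ones outside, at 51912001 to 51916800 on chromosome 15 and, again on chromosome 1, at 49528601 to 49533200, also had a ratio of 1.96. In numbers, 403 widened islands had ratios from 2 to under 2.1, with 323 of them at exactly 2, and 160 pairs had ratios from 1.9 to under 2. Widths are multiples of 200 bp, so narrow ESC islands can reach exactly 2 but no ratio from 1.9 to under 2. The 2 counts therefore do not compare how densely pairs lie on each side of the limit.

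Extension on both sides was the more frequent form. Both edges lay outward by at least 1 window of 200 bp in 1786 islands, or 60.1% (58.3 to 61.9). The other 1185, or 39.9% (38.1 to 41.7), had 1 edge outward. Among the one-sided islands the second edge was at the same place in 920 (77.6%) and inward in 265 (22.4%). The inward shift had a median of 0.2 kb and was a single window in 158 of the 265, and its largest value was 1.8 kb. The PiC island thus held the whole ESC island in 2706 of the 2971 cases. Edges come from the same lists as the widths that chose the islands, so these shares are a description.

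Both directions along the chromosome occurred in close to equal numbers. One-sided islands extended toward lower coordinates in 574 cases and toward higher coordinates in 611, so the lower side made up 48.4% (45.6 to 51.3). Two-sided islands gained more on the lower side in 864 cases, more on the higher side in 863, and equally in 59. Pairs that widened by less than 2 times had the lower side in 51.4% (49.8 to 53.1) of their one-sided extensions.

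Two-sided extension was usually uneven. The larger gain had a median of 2.2 kb and the smaller one of 0.8 kb, and the smaller side held a median of 25% of the added length. Each side added at least the full ESC width in 294 of the 1786 two-sided islands. With an edge counted as moved only from 600 bp, the two-sided share was 38.2%, and with both sides required to hold at least 25% of the added length it was 32.0%. How often widening is called two-sided therefore depends on how small a shift counts, and with those definitions it was the less frequent form.

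**Figure D2:**
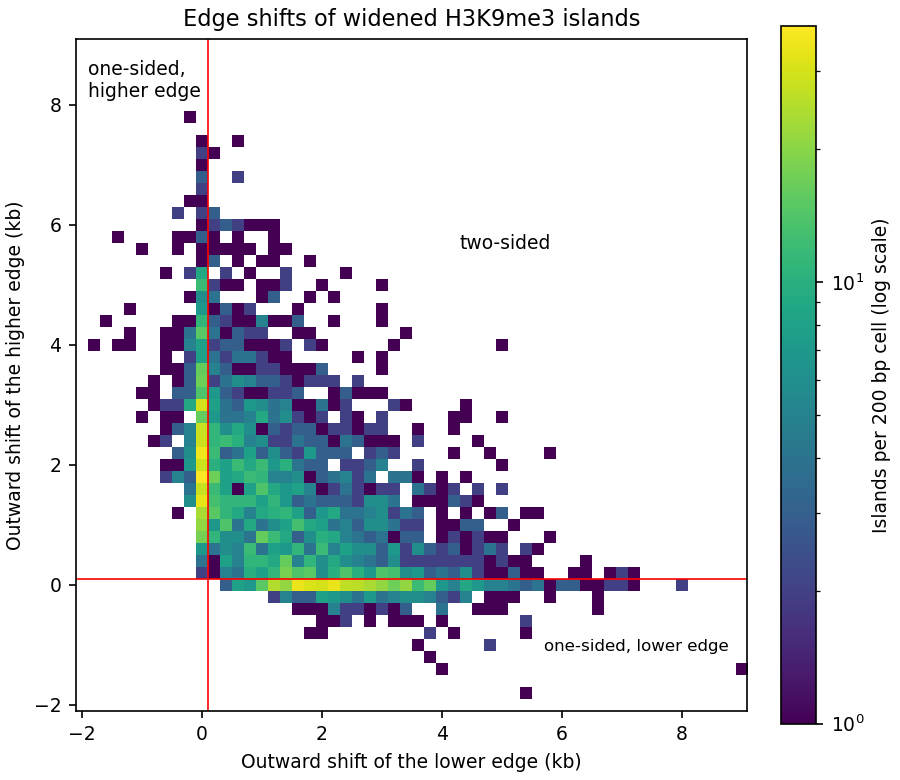
Outward shift of the edge at the lower coordinate (x axis, kb) against that at the higher coordinate (y axis, kb) for the 2971 widened islands, coloured by the number of islands in each 200 bp cell on a log scale. Red lines separate edges that moved outward from edges at the same place or inward. The 920 one-sided islands with a fixed second edge form the bands along 0 on both axes, and the 1786 two-sided islands fill the upper right.

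The two-sided share rose with the length added. An edge counts as moved from 1 window and the added length sums both sides, so a longer gain can more easily include both. The rise is thus set in part by the definition and is a description. It was 39.3% (31.1 to 47.9) of the 140 islands that added 0.2 to 1 kb and 72.7% (69.2 to 76.1) of the 675 that added 4.2 kb or more, with each class between them above the one before. Pairs that widened by less than 2 times were two-sided in 32.8% (31.6 to 34.1). Set by the same added length they came closer, with 23.9% (22.4 to 25.5) at 0.2 to 1 kb and 51.5% (47.4 to 55.5) at 2.2 to 3 kb, where the widened islands had 58.6% (55.2 to 61.9). The narrowed pairs, seen in mirror image, lost both edges in 52.7% (47.0 to 58.3). By ESC width the two-sided share of widened islands went from 54.2% (50.8 to 57.6) at up to 1 kb to 68.6% (64.7 to 72.4) at 2.2 to 3 kb.

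**Figure D3:**
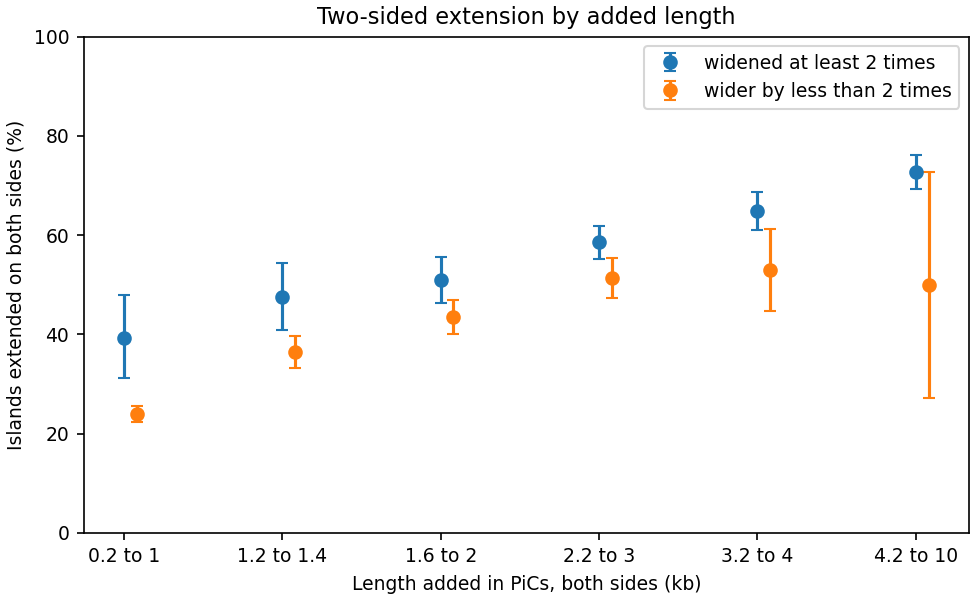
Share of islands extended on both sides (y axis, %) by the length added on both sides together (x axis, kb), for islands widened at least 2 times and for pairs wider by less than 2 times. Points are shares and bars exact 95% binomial intervals, and the share of the widened islands goes from 39.3% to 72.7%.

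Two-sided islands were somewhat larger than one-sided ones, more so in PiCs. In ESCs the one-sided islands had a median width of 1.4 kb and 43 tags, and the two-sided ones 1.6 kb and 47 tags. In PiCs they had 4.0 kb and 4.8 kb, with 120 and 145 tags, and had added 2.4 and 3.0 kb. The nearest other ESC H3K9me3 island lay a median of 18 kb from the one-sided islands and 33.4 kb from the two-sided ones, and the nearest other PiC island 6.8 and 15.2 kb.

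With a close neighbour, the moved edge was mostly the one facing away from it. The nearest ESC H3K9me3 island lay on the side of the moved edge in 37.8% (35.0 to 40.7) of 1182 one-sided islands. This was 11.6% (8.04 to 15.9) where that neighbour was within 5 kb, and 28.2% (22.1 to 35.0) at 5 to 10 kb. The rule enters here, because an island that grew until it met its neighbour is not among the 2971. Beyond 10 kb, which no island of the class could span, the share was 50.9% (47.2 to 54.7) of 703. The side of the nearest ESC H3K36me3 island gave 50.5% (47.5 to 53.4) of 1137 one-sided islands that did not touch one, and that of the nearest PiC H3K36me3 island 49.7% (46.8 to 52.7) of 1124.

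The regions with the most added sequence went from a short ESC island to nearly 10 kb. The largest two-sided gain was on chromosome 4, where an island of 0.8 kb at 96070001 to 96070800 with 41 tags (interval 29.4 to 55.6) became one of 9.8 kb at 96065001 to 96074800 with 260 tags (229 to 294). It gained 5 kb below and 4 kb above. The next was on chromosome 7 at 26650801 to 26652000 (1.2 kb, 33 tags), and it reached 26647801 to 26657000 (9.2 kb, 196 tags). The third, of chromosome 9, lay at 17435201 to 17437000 (1.8 kb, 123 tags) and reached 17429401 to 17439200 (9.8 kb, 296 tags). The fourth, on chromosome 12 at 114625801 to 114627000, was close to one-sided, with 0.6 kb gained below and 7.4 kb above.

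Toward lower coordinates the largest gain was 9 kb, on chromosome 13 at 22632401 to 22634400. Its PiC island ran from 22623401 to 22633000, so its higher edge moved inward by 1.4 kb and only 0.6 kb of the 2 kb ESC island was left under it. A chromosome 18 island at 7320001 to 7321800 gained 8 kb below with its higher edge fixed, and its tags went from 70 to 441. Another 8 kb was added on chromosome 19 at 9552601 to 9553600, with 40 and 263 tags. The chromosome 1 island at 130986401 to 130987600 gained 7.2 kb below and had an ESC neighbour 0.8 kb away.

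Toward higher coordinates the largest gain was 7.8 kb, on chromosome 1 at 17228001 to 17230000, with 53 and 209 tags. It was followed by 7.4 kb on chromosome 7 at 27266001 to 27267000, with 54 and 245 tags. Chromosome 6 had a gain of 7.2 kb at 24881401 to 24883600, and chromosome 13 one of the same length at 87210401 to 87211400. In the last 3 the lower edge was the same in both lists. None of the 12 islands named for their added length carried an H3K36me3 island of either condition. The same held for 2821 (95.0%) of all 2971 widened islands, so it does not set the 12 apart.

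The largest ratios belonged to ESC islands of 1 or 2 windows. Over all pairs, 0.2 kb was the narrowest ESC width and 18 tags the lowest ESC count, so these islands lay at or near the floor of the list. A ratio of 20 was found on chromosome 13 at 10602001 to 10602200, where 18 tags (10.7 to 28.4) in ESCs became 92 (74.2 to 113) in a PiC island starting at 10598201. It was also found on chromosome 16 at 42657201 to 42657400, with 19 tags (11.4 to 29.7) and then 141 (119 to 166) in an island starting at 42653401. Both grew by 3.8 kb on the lower side with the higher edge fixed. On chromosome 1 at 114912401 to 114912800 a 0.4 kb island with 30 tags (20.2 to 42.8) became one of 7.4 kb with 355 (319 to 394), a ratio of 18.5.

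**Figure D4:**
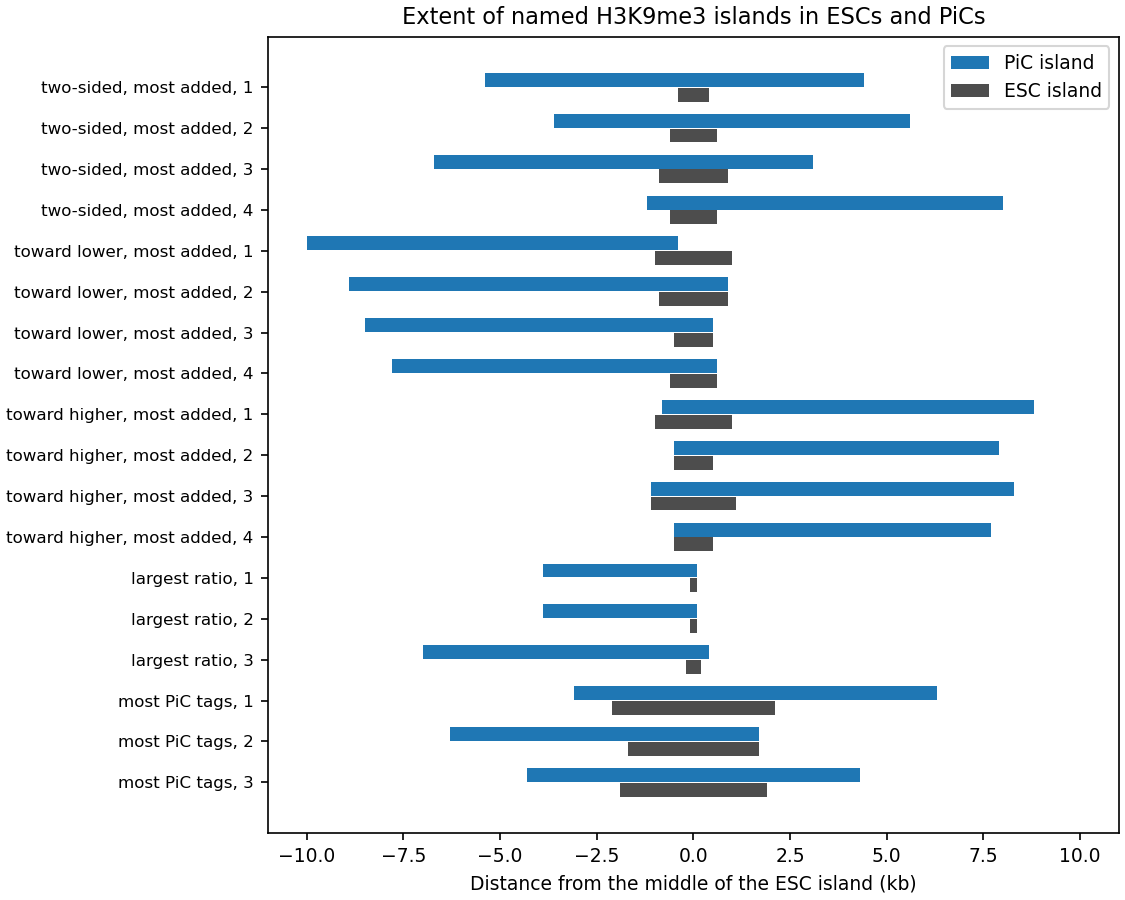
Extent of the ESC island (grey) and of its PiC counterpart (blue) for the named widened islands, drawn to scale around the middle of the ESC island (x axis, kb). Rows follow the order of the text within each set: most added length on both sides, toward lower and toward higher coordinates, largest ratio, and most PiC tags. The one-sided gains reach 9 kb below and 7.8 kb above the ESC island.

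The widened islands held more tags in PiCs, spread over more sequence. The median tag count went from 45 to 134, and 2964 of the 2971 islands (99.8%) held more tags in PiCs. So did 7967 (89.9%) of the 8858 other pairs with a PiC island under 10 kb. The widened islands had a median tag ratio of 2.74, against 1.66 in these other pairs and 1.52 in pairs with the same edges. The sums over the lists had a ratio of 2.33, which includes the wider extent of the PiC list. Tags per kb had medians of 32.0 in ESCs and 30.6 in PiCs, and were higher in PiCs in 45.1% (43.3 to 46.9) of the widened islands. In the other pairs the medians were 26.1 and 37.9, with PiCs higher in 89.4% (88.7 to 90.0). The median ratio of PiC to ESC tags per kb was 0.957 in the widened islands and 1.45 in the other pairs. The PiC list covered 96.4 Mb and the ESC list 55.3 Mb, so the ratio of the list sums is no scale for tags per kb. Tags per kb divide by the widths that chose the islands, and the tags come from the same libraries, so these contrasts are set in part by the choice and are a description. Tags are not scaled to library size, and they are given per island, so the tags of the added stretch cannot be separated from those of the ESC stretch.

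The 3 widened islands with the most PiC tags had ESC widths of 3.4 to 4.2 kb, above the median of 1.6 kb of the class. The first, on chromosome 4, went from 145659001 to 145663200 (4.2 kb, 215 tags) to 145658001 to 145667400 (9.4 kb, 680 tags). The second, on chromosome 1 at 53289401 to 53292800, grew on its lower side from 3.4 to 8 kb, with 376 and 645 tags, the highest ESC count of the class. The third, on chromosome 11 at 121719601 to 121723400, gained 2.4 kb on each side and went from 160 to 568 tags. The input library was not analysed here, so sites that gather tags without the antibody could not be told apart.

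How often a pair widened at least 2 times varied strongly with its width in ESCs. Among pairs with a PiC island under 10 kb the share was 69.1% (66.4 to 71.7) of 1239 at an ESC width of 0.2 to 1 kb and 38.4% (36.8 to 40.1) of 3522 at 1.2 to 2 kb. It was 18.5% (17.2 to 19.9) of 3135 at 2.2 to 3 kb, 8.33% (7.12 to 9.67) of 1885 at 3.2 to 4 kb and 2.86% (1.84 to 4.23) of 839 at 4.2 to 4.8 kb. ESC width is part of the rule, and the limit of 10 kb leaves less room for wide islands, so this is a description.

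H3K36me3, which the rule did not use, lay farther from the widened islands than from the other pairs. The nearest ESC H3K36me3 island was a median of 329 kb from the widened islands and 209 kb from the other pairs, and the nearest PiC one 253 and 161 kb. The share of pairs that widened was 15.2% (12.2 to 18.6) of 506 that touched ESC H3K36me3, 12.0% (9.38 to 15.1) of 523 within 10 kb, 19.0% (17.1 to 21.1) at 10 to 50 kb, 22.9% (21.4 to 24.5) at 50 to 200 kb and 29.4% (28.3 to 30.6) of 6381 beyond that. Pairs near H3K36me3 were also wider in ESCs, with a median of 3.2 kb where they touched it and 2.4 kb beyond 200 kb.

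As a point value, the share also rose with distance within each of the 4 classes of ESC width, with overlap between some intervals. At 2.2 to 3 kb the widened share was 12.5% (10.05 to 15.3) within 50 kb of ESC H3K36me3, 15.0% (12.5 to 17.7) at 50 to 200 kb and 22.4% (20.4 to 24.4) beyond. At 1.2 to 2 kb it was 31.7% (28.0 to 35.4), 36.3% (33.1 to 39.6) and 41.5% (39.4 to 43.7). At 3.2 to 4.8 kb it was 4.2% (2.83 to 5.97), 5.02% (3.48 to 6.97) and 8.65% (7.22 to 10.3). In this widest class the median ESC width was 3.8 kb within 50 kb and 3.6 kb beyond 200 kb, so width was not fully held equal. At 0.2 to 1 kb the values were 66.1% (59.0 to 72.8), 68.5% (62.7 to 73.9) and 70.1% (66.7 to 73.3), and all 3 intervals overlapped.

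**Figure D5:**
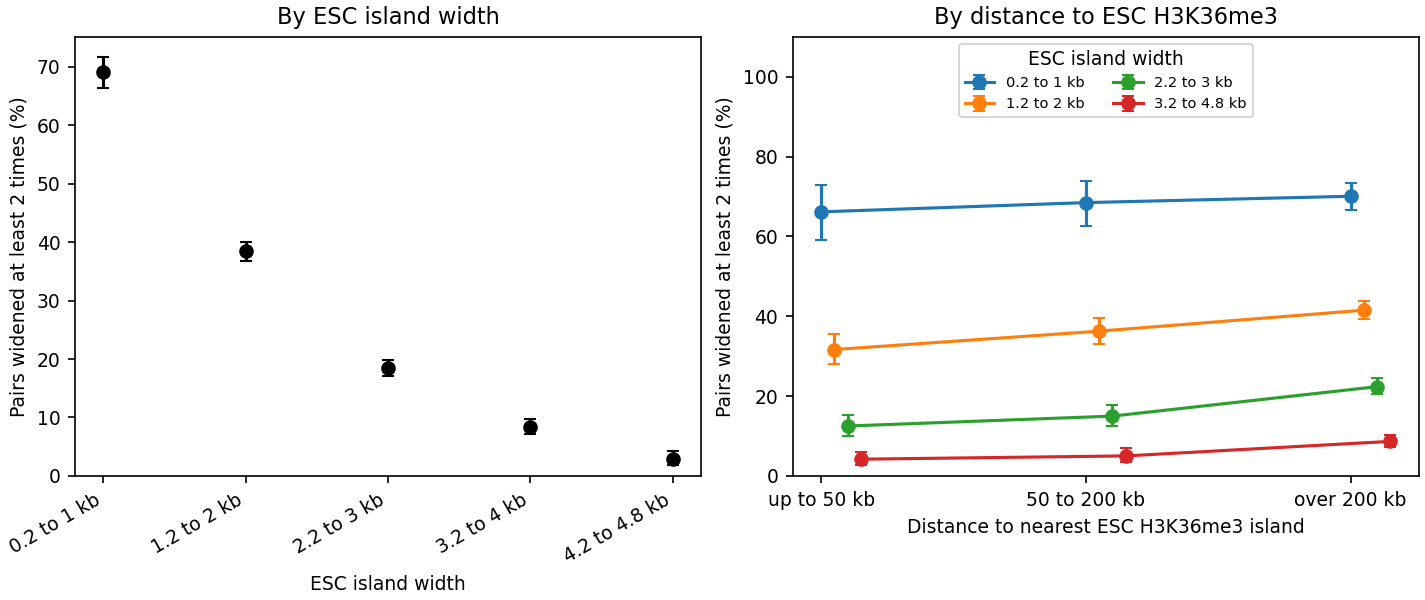
Share of pairs that widened at least 2 times (y axis, %) by the width of the ESC island (left) and by its distance to the nearest ESC H3K36me3 island within 4 classes of ESC width (right), for pairs with a PiC island under 10 kb. Points are shares and bars exact 95% binomial intervals. The share goes from 69.1% to 2.86% with ESC width, and at 2.2 to 3 kb from 12.5% near H3K36me3 to 22.4% far from it.

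Few widened islands carried H3K36me3. In PiCs 139 of the 2971, or 4.68% (3.95 to 5.50), touched an H3K36me3 island, against 8.66% (8.08 to 9.26) of the other pairs and 15.6% (11.7 to 20.04) of the narrowed ones. With ESC H3K36me3 over the same stretches the values were 2.79% (2.23 to 3.45), 4.75% (4.32 to 5.22) and 11.4% (8.13 to 15.5). The narrowed pairs are a part of the other pairs. Their ESC islands had a median width of 3.8 kb, against 1.6 kb for the widened islands, and they were not compared at equal width. At equal ESC width the values of the widened islands and of the other pairs were closer in 3 of the 4 classes. For PiC H3K36me3 they were 3.27% (2.18 to 4.69) and 3.92% (2.21 to 6.38) in islands of 0.2 to 1 kb. They were 4.8% (3.72 to 6.08) and 5.26% (4.36 to 6.28) at 1.2 to 2 kb, and 6.21% (4.38 to 8.49) and 6.93% (5.97 to 7.98) at 2.2 to 3 kb. At 3.2 to 4.8 kb they were not closer, with 5.52% (2.68 to 9.93) and 10.4% (9.22 to 11.6).

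H3K36me3 covered a slightly smaller part of the added sequence than of the ESC islands themselves. Over all 2971 islands PiC H3K36me3 covered 4.75% of the 4.87 Mb of ESC islands and 3.44% of the 9.14 Mb added. ESC H3K36me3 covered 2.43% and 2.16%. The other pairs had the same order, with 9.21% and 5.16% for PiC H3K36me3 and 4.96% and 3.06% for ESC H3K36me3. A widened island whose ESC stretch was free of PiC H3K36me3 touched it with its added part in 1 case, and with ESC H3K36me3 in 6. By condition, 72 of the PiC islands touched H3K36me3 in both, 67 in PiCs alone and 11 in ESCs alone. In the other pairs these counts were 392, 375 and 29 of 8858.

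Of the widened islands 51 lay wholly under PiC H3K36me3, and 27 of these wholly under ESC H3K36me3 as well. The first of them along the genome was on chromosome 1 at 11082801 to 11084400, which went from 1.6 to 3.2 kb inside H3K36me3 of both conditions. At 17062601 to 17063800 on chromosome 1 an island grew from 1.2 to 5.4 kb on its higher side under PiC H3K36me3, while the nearest ESC H3K36me3 island was 391 kb away. A pair of neighbours on chromosome 1 grew toward each other inside H3K36me3 of both conditions. The lower one, at 52982001 to 52982400, extended upward to 52986000, and the higher one, at 52993801 to 52996600, extended downward to 52987001, which left 1 kb between them.

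Widened islands were found on all 19 autosomes. Their share of the pairs ran from 19.1% (15.9 to 22.5) on chromosome 15 to 28.2% (25.8 to 30.7) on chromosome 1, which alone held 388 of them, and the median chromosome had 24.2%. The two-sided share ran from 53.0% (45.5 to 60.3) on chromosome 13 to 65.2% (57.9 to 72.1) on chromosome 2. In the 283 windows of 5 Mb with at least 20 pairs, the widened share had a median of 24.2% and a range from 4.55% to 48.1%. The ends of this range rest on few pairs, 1 of 22 (0.115 to 22.8) and 13 of 27 (28.7 to 68.1). Whether the range exceeds counting error was not tested.

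The next pair along the chromosome was widened about as often after a widened island as after another pair. After a widened island the next pair within 10 kb was widened in 23.6% (19.5 to 28.2) of 385 cases, and after any other pair in 20.3% (18.3 to 22.4) of 1573. At 10 to 50 kb the values were 26.3% (23.3 to 29.6) and 25.5% (23.7 to 27.4), and at more than 50 kb 25.3% and 24.4%. The intervals overlap at each distance, but they cover counting error only, and overlap does not show that the shares are equal. A further ESC H3K9me3 island lay within 10 kb of 29.3% of the widened islands and of 36.2% of the other pairs, and a further PiC island within 10 kb of 47.5% and 48.5%.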

How the data were processed

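Per the submitters' processing notes, SICER called the islands, on mm9. Not given in the sources used here: its version and settings, the aligner, how duplicate reads were handled, and whether the input served as control. Each deposited list gives chromosome, start, end and a whole number per island, taken from its whole values and from the layout that SICER writes as a tag count not scaled to library size. The tags in islands summed to 1511058 and 3514489 for H3K9me3 in ESCs and PiCs, and to 26055650 and 15787192 for H3K36me3, and full library depth is unknown. Starts and ends lay on a 200 bp grid, and positions are printed 1-based.

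Pairs, edges, distances and overlaps (from 1 bp) were computed with scipy 1.17.1, pandas 2.3.3 and numpy 2.4.6 under Python 3.11.15, and plotted with matplotlib 3.10.9. The functions were tested on simulated lists. Distances are free bases between island edges. With 1 library per group there was no test. Regions named were the islands with the most added length per form of extension, the largest ratios, the most PiC tags, the most PiC H3K36me3 and those at the limit, with ties taken by chromosome and start. The members and these choices were made with earlier results of these data known. The reference tables at hand were of build GRCm38.p6, so no genes, repeats or sequences were assigned. Alternatives were other ratios and width limits, other pairings, lists of equal size and single chromosomes left out.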

Additional observations from a re-analysis of the deposited data

How the results depend on the processing

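No paired analysis was possible because there was a single library per group, and for the same reason no setting could leave out a replicate. The widened share of pairs (24.3%) was 40.5% at a ratio of at least 1.5, 9.83% at 3, 25.8% with no upper limit of PiC width, 14.4% with a limit of 5 kb, 21.1% for ESC islands of at least 1 kb and 26.0% with lists of equal size. In that order the ratio of widened to narrowed pairs (9.43) was 7.01, 13.2, 9.73, 7.91, 7.84 and 23.6. Lists of equal size kept only the PiC islands with the most tags. Widened pairs then went from 2971 to 2709 and narrowed ones from 315 to 115, so the 23.6 is set in part by that choice. The ratio was 73.9 when the PiC island had to cover 50% of the ESC island, which removes most narrowed pairs by construction. The two-sided share (60.1%) was 54.9% at a ratio of 1.5, 65.2% at 3, 51.8% with the 5 kb limit, 62.2% for ESC islands of at least 1 kb, 38.2% with edges counted from 600 bp and 32.0% with 25% of the added length required on both sides. The share touching PiC H3K36me3 (4.68%) was 3.94% with 50% of the island required. The share extended toward the nearest ESC island (37.8%) was 27.4% with a neighbour within 20 kb and 50.9% with one over 10 kb away, a setting chosen after seeing the data, as was leaving out chromosome 1. The other settings, joining islands over 2 kb and leaving out chromosome 15 or chromosome 1 among them, kept each of these 5 values within its own interval.

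Depth limits the precision of narrow islands: the counts of 18 and 19 tags behind the ratio of 20 have wide intervals. Whether ESC islands would widen at the tag yield of the PiC library was not tested.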
